A study of Mus musculus with 24 samples.

Results

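The interferon regulatory factors (IRFs) are a family of transcription factors that share a DNA-binding domain. The family was read here as 8 genes, Irf1, Irf2, Irf3, Irf4, Irf5, Irf7, Irf8 and Irf9, which were chosen by name from the 55335 genes of a table of estimated read counts. All 8 passed the filter on low counts that left 15953 genes for testing. The cells were invariant natural killer T cells (iNKT), which see lipids held by CD1d, and came from mesenteric lymph nodes of C57BL/6J mice. These mice had received 2 µg of the lipid antigen alpha-galactosylceramide (aGC) in 200 µL PBS, or PBS alone, by mouth 24 h earlier. They were the offspring of dams given a fecal transplant (FT) from wild-type donors (WT FT) or from donors lacking CD1d (CD1d-KO donors, KO FT). Fecal donor, treatment and sex made 8 groups of 3 libraries, 24 in all. KO names the donor of the feces, and the labels give no deletion in the mice whose cells were sequenced. The age of the mice is not given in the sources used here. Neither is whether each library stands for another animal, so p-values measure only the spread between libraries. The fecal donor cannot be told apart from the dam, litter or cage.

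IRF4 and IRF8 are induced by T cell receptor (TCR) signalling in lymphocytes, in step with its strength in the case of IRF4, and bind composite sites with partners such as BATF, JUN and SPI1. IRF1, IRF7 and IRF9 lie downstream of interferon: IRF9 is part of a complex that binds interferon-stimulated response elements (ISRE), IRF7 amplifies type I interferon production, and IRF1 is induced by interferon gamma through gamma-activated sites (GAS). IRF3 and IRF5 are mostly held ready in the cytoplasm and activated by phosphorylation downstream of nucleic acid sensors and Toll-like receptors, and IRF2 competes with IRF1 for its sites. The lipid aGC on CD1d engages the iNKT receptor directly, so the TCR-induced and the interferon-induced branches of the family can be read side by side.

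Upstream sequences of the leading members of each branch are shown to let their letters be compared with those of the interferon response elements. They are from RefSeq (build GRCm38.p6), in which 8 of 8 members had 1 or more starts, 11 in all. Each is written 5′ to 3′ on the gene's strand and ends at the base before the annotated start or, for Irf4 and Irf7, before the first annotated exon. The Irf4 stretch is chr13:30748983-30749225 on the plus strand, the Irf8 stretch chr8:120736108-120736357 (plus), the Irf1 stretch chr11:53769764-53770013 (plus) and the Irf7 stretch chr7:141266482-141266674 (minus). Capitals mark the letters TTCNNNGAA, the GAS pattern, which reads the same on both strands.
Irf4: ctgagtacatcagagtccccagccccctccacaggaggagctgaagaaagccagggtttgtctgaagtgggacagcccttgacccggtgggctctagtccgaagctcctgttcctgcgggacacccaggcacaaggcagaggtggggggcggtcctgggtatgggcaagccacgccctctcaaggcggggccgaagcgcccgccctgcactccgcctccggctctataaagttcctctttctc
Irf8: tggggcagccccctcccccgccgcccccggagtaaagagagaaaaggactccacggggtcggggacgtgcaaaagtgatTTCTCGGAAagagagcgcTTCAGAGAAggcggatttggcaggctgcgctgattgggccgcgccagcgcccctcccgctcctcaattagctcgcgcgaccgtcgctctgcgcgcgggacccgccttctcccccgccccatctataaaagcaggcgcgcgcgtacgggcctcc
Irf1: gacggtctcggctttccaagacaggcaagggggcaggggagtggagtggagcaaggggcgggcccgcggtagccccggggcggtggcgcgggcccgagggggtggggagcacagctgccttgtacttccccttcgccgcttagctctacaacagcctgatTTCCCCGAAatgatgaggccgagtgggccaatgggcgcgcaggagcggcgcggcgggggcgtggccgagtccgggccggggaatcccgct
Irf7: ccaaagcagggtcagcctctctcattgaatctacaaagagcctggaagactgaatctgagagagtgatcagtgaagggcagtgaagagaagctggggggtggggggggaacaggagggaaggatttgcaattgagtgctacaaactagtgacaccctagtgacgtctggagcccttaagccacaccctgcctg
In the 250 bases before each start, Irf1 held 1 GAS match, at -90 to -82 from the start, and Irf8 held 2, at -171 to -163 and -153 to -145. Irf2, not shown, held a GAS match at -224 to -216 and an ISRE match (GAAA, any 2 bases and GAAA again, on either strand) at -241 to -232. These matches did not overlap one another. No match to either pattern was found in the windows of Irf3, Irf4, Irf5, Irf7 and Irf9. The windows of Irf9 both lie inside its annotated gene, so the bases before that gene were not searched. The AP-1 letters TGANTCA and the kappa B letters (GGGA, any 2 bases and TTCC), searched on both strands, were in none of the 11 windows. Only these exact letters were searched, so GAS, ISRE, AP-1 or kappa B sites with other letters could be missed, as could sites outside the windows. The kappa B letters can share bases with a GAS match. Of 32851 promoters of the same length in the table, 7.02% held the GAS pattern, 2.98% the ISRE, 6.75% the AP-1 and 1.21% the kappa B pattern. A match is a description of letters and shows no binding.

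Libraries held 9764931 to 37016768 estimated counts, and 3 counts, the limit that a count of 0 allows, were worth 0.081 to 0.307 CPM (counts scaled to a common library total), for counting error only. The members had 93 counts or more in every library. Cd8a, a gene of conventional CD8 T cells, split the groups. It averaged 287 and 136 CPM in PBS males (WT FT and KO FT) and 245 and 189 CPM in aGC females, but 5.20 to 7.59 CPM in PBS females and aGC males. Male-female differences in the aGC response are therefore also differences in Cd8a, and the 2 cannot be told apart. The mean of the sexes has 1 group of high and 1 of low Cd8a on each side. A comparison of aGC with PBS within low or within high Cd8a sets 1 sex against the other, so it also carries any sex difference. Cd79a stayed at or below 4.43 CPM, Itgax at or below 1.25, Siglech at or below 1.73 and Csf1r at or below 5.01 in every library, and Itgax, Siglech and Csf1r were at 0 in 15, 1 and 3 libraries. The 10 B cell markers summed to 465 to 1099 CPM, nearly all of it Ighm, which averaged 463 to 1033 CPM. The 15 dendritic cell markers summed to 308 to 524 CPM, the 10 monocyte and macrophage markers to 79.97 to 243 CPM, and the 11 T cell and iNKT markers to 6063 to 10120 CPM. Cd79a, Itgax, Siglech and Csf1r made up little of the sums of their own lists. Their low values alone thus do not show that such cells were absent. Trav11, the alpha-chain variable gene of iNKT receptors, averaged 336 to 848 CPM and Zbtb16, which encodes the iNKT factor PLZF, 34.1 to 80.2 CPM. In bulk RNA, fewer cells of a type and less RNA per cell cannot be told apart.

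Levels are CPM scaled by TMM. Per kilobase of the main transcript, Irf1 was the most abundant member over all libraries, at 262 CPM per kb. It was followed by Irf7 (124), Irf3 (77.0), Irf9 (69.9), Irf8 (66.8), Irf2 (28.4), Irf5 (11.9) and Irf4 (10.2), all in CPM per kb. The order held for Irf1, Irf7, Irf3, Irf9 and Irf8 when the length of all exons was used, while Irf4 (9.92), Irf2 (9.58) and Irf5 (9.14 CPM per kb of exons) changed places. The ranking moved with treatment. In WT FT PBS females, Irf8 stood at 16.3 CPM per kb and Irf4 at 1.52 (SD 0.016), the lowest of the 8. In WT FT aGC males, Irf8 at 144 CPM per kb was second to Irf1 at 202, and Irf4 at 19.6 (SD 0.56) was level with Irf2 at 19.8 (SD 1.28), a gap smaller than either SD. Irf3 (68.0, SD 2.74) and Irf7 (62.7, SD 6.75 CPM per kb) also did not differ beyond their spread there. Both statements depend on the length used: per kb of all exons, the same group had Irf4 at 19.1 and Irf2 at 6.68, and Irf3 at 40.1 and Irf7 at 31.8 CPM. Between the highest and the lowest group mean, Irf8 spanned 17.2-fold and Irf4 13.7-fold, Irf7 3.34-fold and Irf9 2.23-fold. Irf2 (1.93-fold), Irf5 (1.74-fold), Irf1 (1.57-fold) and Irf3 (1.39-fold) spanned less.

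**Figure D1:**
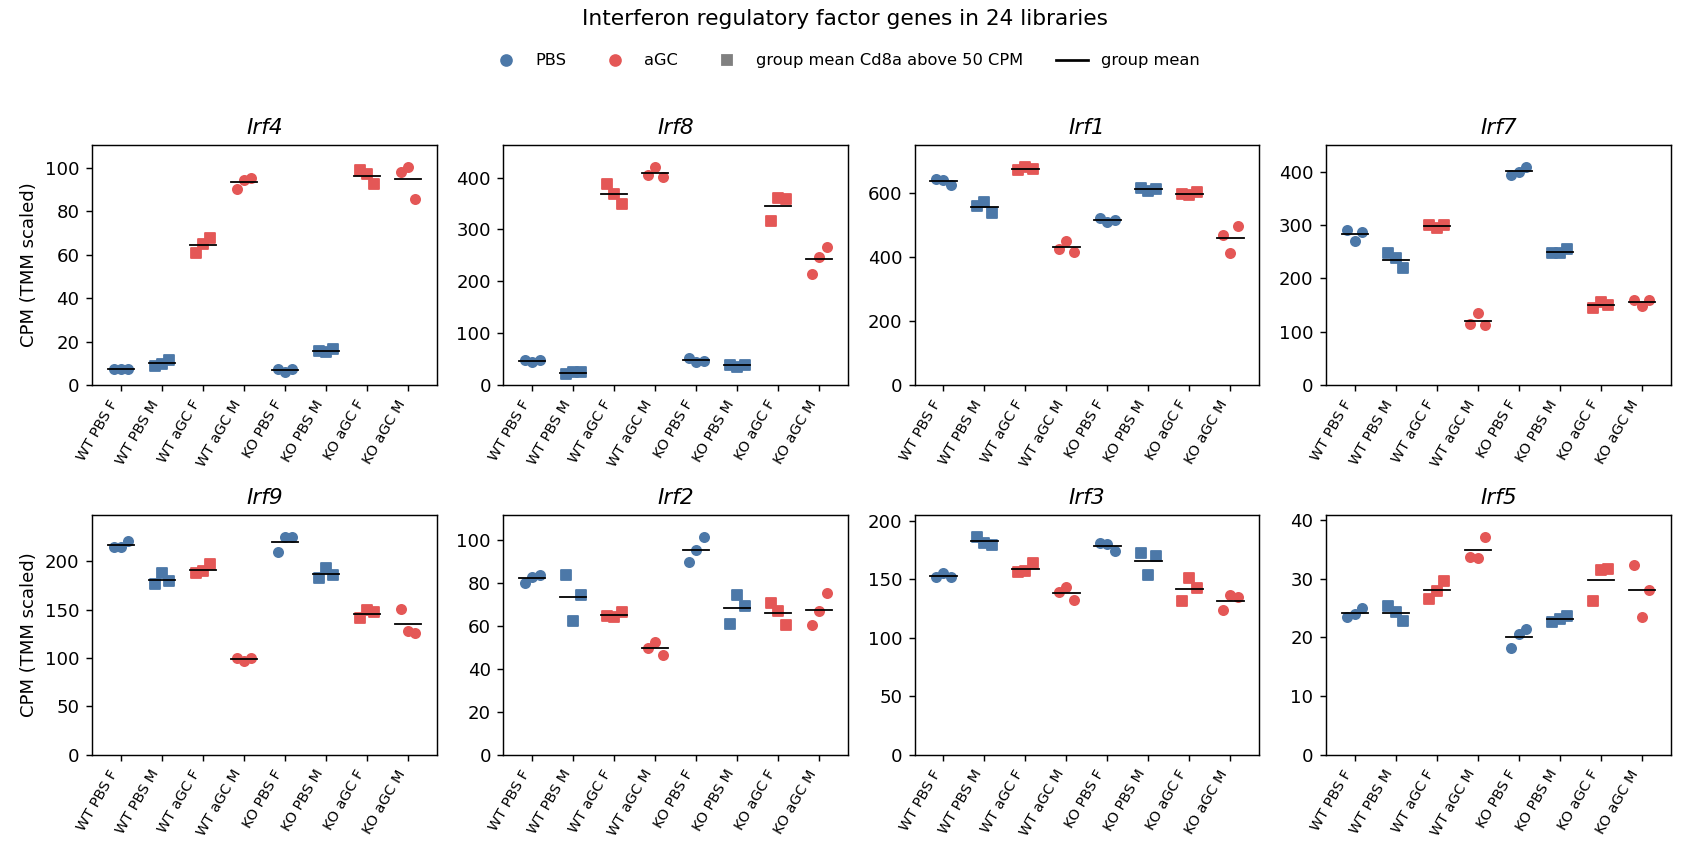
CPM (TMM scaled, linear axis from 0, 1 panel per gene) of the 8 members in each of the 24 libraries, in blue for PBS and red for aGC, with squares for groups whose mean Cd8a exceeded 50 CPM and a line at each group mean. Irf4 and Irf8 are higher in every aGC library than in any PBS library, while the other members overlap between treatments when both donor groups are pooled.

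The question put to the TCR-induced pair was how far aGC raised them and whether the fecal donor changed that. Irf4, which drives effector differentiation and metabolism of activated T cells (ENSMUSG00000021356.10, chr13:30749226-30766976, plus strand), stood at 7.31, 7.18 and 7.31 CPM in the WT FT PBS females and at 8.58, 9.86 and 11.7 in the males. After aGC it stood at 60.8, 64.8 and 67.8 CPM in the WT FT females and at 90.4, 94.6 and 95.3 in the males. In KO FT mice the PBS females had 7.47, 6.17 and 7.48 CPM and the PBS males 15.5, 15.3 and 16.4. The 12 aGC libraries were all above the 12 PBS libraries, and the KO FT PBS males were the highest of the PBS groups. KO FT mice given aGC had 99.3, 97.3 and 92.7 CPM in females and 98.0, 101 and 85.7 in males, so the WT FT aGC females were the lowest aGC group.

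Averaged over the sexes, Irf4 rose 9.06-fold in WT FT (log2 change 3.18 ± 0.067 SE, adjusted p = 1.65e-21) and 9.06-fold in KO FT (3.18 ± 0.067, adjusted p = 4.24e-21; edgeR's quasi-likelihood test, two-sided, Benjamini-Hochberg adjustment over 15953 genes). The difference between the 2 responses, KO FT minus WT FT, was -0.0011 ± 0.082 on the log2 scale (edgeR adjusted p = 1). Within a sex the KO FT responses were apart, at 3.76 ± 0.098 in females and 2.59 ± 0.091 in males, while those of WT FT were 3.15 ± 0.097 and 3.21 ± 0.094. The male-minus-female difference was -1.17 ± 0.13 in KO FT (edgeR adjusted p = 2.19e-07). Male and female responses differed for 5 members in WT FT (47.7% of all genes) and for 4 in KO FT (46.7%).

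Irf8, best known for monocyte and dendritic cell development and also induced in activated T cells (ENSMUSG00000041515.10, chr8:120736358-120756694, plus strand), stood at 47.6, 44.2 and 47.6 CPM in the WT FT PBS females. The WT FT PBS males had 21.3, 25.1 and 25.0 CPM. After aGC the WT FT females had 387, 369 and 349 CPM and the males 406, 421 and 401. PBS and aGC were again fully apart, and the WT FT PBS males were the lowest group of all. In KO FT, PBS females had 52.1, 44.9 and 45.6 CPM and PBS males 39.1, 34.7 and 39.2. After aGC, KO FT females had 317, 361 and 358 CPM and KO FT males 214, 246 and 267, the lowest of the aGC groups with no overlap with the other 3.

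The response of Irf8 was 11.7-fold in WT FT (log2 3.54 ± 0.060, adjusted p = 3.6e-23) and 6.86-fold in KO FT (2.78 ± 0.059, adjusted p = 4.24e-21), both by edgeR with Benjamini-Hochberg adjustment. It was thus 0.77 ± 0.081 log2 units smaller in KO FT (edgeR adjusted p = 1.09e-07). Between groups of low Cd8a only (PBS females against aGC males) the rise was 3.15 in WT FT and 2.36 in KO FT, and between groups of high Cd8a only (PBS males against aGC females) it was 3.91 and 3.25. The KO FT minus WT FT difference was -0.79 ± 0.11 in the first (edgeR adjusted p = 9.22e-05) and -0.66 ± 0.11 in the second (edgeR adjusted p = 0.00035), a comparison added after the data were seen. By sex, the responses were 2.99 ± 0.083 in WT FT females, 4.10 ± 0.088 in WT FT males, 2.86 ± 0.083 in KO FT females and 2.70 ± 0.084 in KO FT males. When the 3 libraries of each group were summed to 1 profile, so that the spread came from differences between the 8 groups, the rises of Irf4 and Irf8 still passed (adjusted p = 0.00323 for both in WT FT and 0.0103 for both in KO FT). The Irf8 difference of -0.75 then did not (edgeR adjusted p = 0.935). The marker lists of B cells, dendritic cells and monocytes, given above, were not at 0, and their part in the Irf8 values was not tested.

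The interferon-induced members moved the other way on average, as did Irf2 and Irf3, described below. IRF7 is the amplifier of type I interferon (Irf7, ENSMUSG00000025498.15, chr7:141262706-141266481, minus strand). Its gene stood at 291, 271 and 288 CPM in WT FT PBS females and at 247, 239 and 219 in the males. After aGC the WT FT females kept 301, 295 and 299.6 CPM, and the males had 114, 135 and 112. Only the males of WT FT were thus below PBS, with no overlap. In KO FT, PBS females had the highest levels of the study at 394, 400.4 and 409 CPM, and PBS males had 247, 248 and 255. KO FT mice given aGC had 144, 155 and 150.4 CPM in females and 159, 148 and 160.2 in males, below every PBS library of either donor.

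Over the sexes, Irf7 fell by 0.45 ± 0.042 log2 units in WT FT (edgeR adjusted p = 1.59e-09) and by 1.05 ± 0.042 in KO FT (edgeR adjusted p = 4.9e-16). The fall was 0.61 ± 0.059 log2 units larger in KO FT (edgeR adjusted p = 4.07e-08). The WT FT females did not pass (log2 change 0.08 ± 0.058, edgeR adjusted p = 0.278), against -0.97 ± 0.060 in WT FT males, -1.42 ± 0.060 in KO FT females and -0.68 ± 0.060 in KO FT males. Between groups of low Cd8a, Irf7 changed by -1.22 in WT FT and by -1.36 in KO FT, and the difference of -0.13 did not pass (edgeR adjusted p = 0.271). Between groups of high Cd8a it rose by 0.30 in WT FT (edgeR adjusted p = 8.06e-05) and fell by 0.69 in KO FT, a difference of -0.99 (edgeR adjusted p = 6.07e-07). With 1 summed profile per group no fall of Irf7 passed, and the difference of -0.62 had an edgeR adjusted p of 0.935.

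Irf9, the DNA-binding part of the complex that acts on ISREs (ENSMUSG00000002325.15, chr14:55603571-55610030, plus strand), had 214, 215 and 221 CPM in WT FT PBS females and 176, 187 and 179 in the males. After aGC it had 188, 189 and 197 CPM in WT FT females and 99.5, 96.8 and 99.4 in the males, the lowest group. KO FT PBS females had 209.5, 225 and 225 CPM, KO FT PBS males 183, 193 and 185. KO FT aGC females had 141, 149.6 and 147 CPM and aGC males 151, 128 and 126. In KO FT every aGC library lay below every PBS library, whereas the WT FT aGC females lay between the WT FT PBS males and PBS females. The fall over the sexes was 0.53 ± 0.039 log2 units in WT FT (edgeR adjusted p = 2.33e-11) and 0.53 ± 0.039 in KO FT (edgeR adjusted p = 4.05e-11), and the difference of -0.0035 ± 0.056 did not pass (edgeR adjusted p = 0.992). That difference was 0.42 in the groups of low Cd8a and -0.35 in those of high Cd8a, both past the threshold (edgeR adjusted p = 0.00203 and 0.000903). The WT FT change itself was -1.13 between groups of low Cd8a and 0.037 between groups of high Cd8a (edgeR adjusted p = 0.489). With 1 summed profile per group the fall of Irf9 did not pass in either donor group (edgeR adjusted p = 0.218 in WT FT and 0.287 in KO FT).

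Irf1, the interferon gamma target with the GAS match above (ENSMUSG00000018899.16, chr11:53770014-53778374, plus strand), changed least of the interferon-induced members when the sexes were averaged. It had 643, 642 and 627 CPM in WT FT PBS females, 559, 571 and 537 in PBS males, 671, 682 and 676 in aGC females and 424, 451 and 417 in aGC males. In KO FT it had 522, 509 and 516 CPM in PBS females, 615, 606 and 614 in PBS males, 598, 593 and 603 in aGC females and 470.3, 414 and 498 in aGC males. The aGC males were the lowest group of either donor, and the aGC females lay above the PBS females. The mean log2 change was -0.14 ± 0.034 in WT FT (edgeR adjusted p = 0.000798) and -0.10 ± 0.034 in KO FT (edgeR adjusted p = 0.0165). That of KO FT missed the threshold without replicate 2 of the KO FT aGC males (adjusted p = 0.054), or without replicate 2 (0.052) or replicate 3 (0.0518) of the WT FT aGC females. Between groups of high Cd8a the WT FT change was 0.24. The KO FT minus WT FT difference of the response was 0.043 ± 0.048 over the sexes (edgeR adjusted p = 0.497). That difference was 0.40 in the groups of low Cd8a and -0.23 in those of high Cd8a, both past the threshold (edgeR adjusted p = 0.00153 and 0.00231). The mean changes of WT FT and of KO FT both covered opposite signs by sex. In females the change was 0.09 ± 0.048 (WT FT, not passed, edgeR adjusted p = 0.124) and 0.21 ± 0.048 (KO FT, edgeR adjusted p = 0.000589), and in males -0.37 ± 0.048 and -0.41 ± 0.048.

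**Figure D2:**
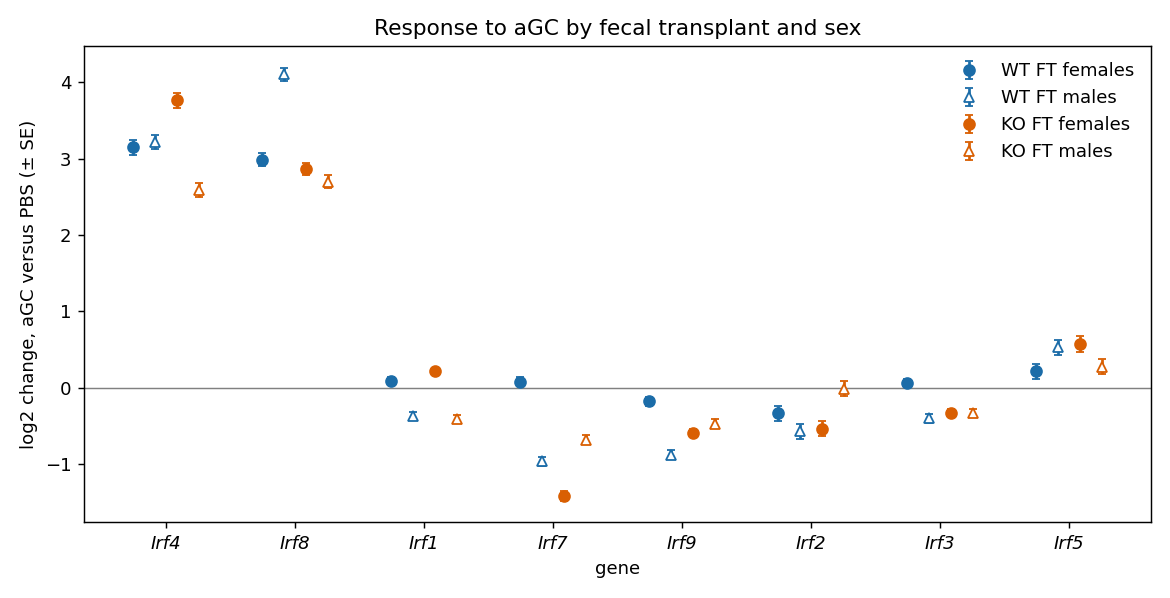
Log2 change of each member after aGC (y axis, ± SE from edgeR) in WT FT (blue) and KO FT (orange), with filled circles for females and open triangles for males. Irf4 and Irf8 lie between 2.59 and 4.10 in all 4 settings, and Irf7 runs from -1.42 in KO FT females to 0.08 in WT FT females.

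The remaining members, Irf5, Irf2 and Irf3, changed by at most 0.57 log2 units in any stratum of donor and sex. Irf5, a partner of Toll-like receptor signalling (ENSMUSG00000029771.12, chr6:29526625-29541871, plus strand), ranged from 18.2 to 25.4 CPM over the PBS libraries and from 23.6 to 37.2 CPM over the aGC libraries, with overlap in KO FT but not in WT FT. It rose by 0.37 ± 0.071 log2 units in WT FT (edgeR adjusted p = 6.81e-05) and by 0.42 ± 0.072 in KO FT (edgeR adjusted p = 2.16e-05). In WT FT females alone the change of Irf5 was 0.21 (edgeR adjusted p = 0.0737), against 0.53 in males. Its exons share 411 bases, or 14.1% of their length, with Tnpo3 on the other strand, and the libraries do not keep the strand. Irf2, the antagonist of IRF1 (ENSMUSG00000031627.9, chr8:46739732-46847458, plus strand), fell by 0.46 ± 0.068 log2 units in WT FT (edgeR adjusted p = 2.97e-06) and by 0.28 ± 0.068 in KO FT (edgeR adjusted p = 0.00131). The WT FT fall was close to that of Irf7. The KO FT fall of Irf2 was in females (-0.54), while males had -0.013 (edgeR adjusted p = 0.923). KO FT PBS females were its highest group at 89.8, 95.1 and 102 CPM, and WT FT aGC males its lowest at 49.5, 52.6 and 46.2. Irf3, activated by TBK1 downstream of DNA and RNA sensors (ENSMUSG00000003184.15, chr7:44997648-45002848, plus strand), fell by 0.17 ± 0.039 log2 units in WT FT (edgeR adjusted p = 0.000377) and by 0.33 ± 0.039 in KO FT (edgeR adjusted p = 1.14e-07). In WT FT it fell in males (-0.40), while females had 0.056 (edgeR adjusted p = 0.397). Irf3 ranged from 124 to 187 CPM over all 24 libraries, 1.51-fold, the narrowest ratio of highest to lowest in the family. Between groups of high Cd8a, Irf2 did not pass in WT FT (-0.22, edgeR adjusted p = 0.0652) or in KO FT (-0.0098, 0.948), nor did Irf5 in WT FT (0.17, 0.113).

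All 8 members thus passed in WT FT (3 higher, 5 lower) and all 8 in KO FT (3 higher, 5 lower), with the same sign in both. The background is high. Of all tested genes 68.4% passed in WT FT (30.9% higher, 37.5% lower) and 58.1% in KO FT (28.1% higher, 30.1% lower), so passing sets no member apart. Libraries of the 2 treatments did not overlap for 3 members in WT FT (Irf4, Irf8 and Irf5, against 33.4% of all genes) and for 5 in KO FT (Irf4, Irf8, Irf7, Irf9 and Irf3, against 23.3%). The sizes of Irf4 and Irf8 do stand out, since the median absolute log2 change over all genes was 0.60 in WT FT and 0.44 in KO FT. In WT FT the changes of Irf1 (-0.14), Irf7 (-0.45) and Irf9 (-0.53) were smaller than that median. In KO FT those of Irf7 (-1.05) and Irf9 (-0.53) were larger than it, and that of Irf1 (-0.10) was smaller. By stratum, 4 members passed in WT FT females (58.4% of all genes), 8 in WT FT males (66.6%), 8 in KO FT females (56.0%) and 7 in KO FT males (53.5%). The 2 comparisons have separate controls. With 1 summed profile per group, Irf4 and Irf8 alone of the 8 passed in both (10.1% of all genes in WT FT and 2.07% in KO FT).

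Of the 8 responses averaged over the sexes, 3 differed between the donors, against 44.5% of all tested genes (22.6% lower). They were those of Irf8, Irf7 and Irf3 (-0.16 ± 0.055, edgeR adjusted p = 0.0239), all lower in KO FT. By sex, the responses of Irf7 and Irf3 were lower in KO FT in females but not in males. That of Irf8 was lower mainly in males. The donor difference was not tested within a sex. The Irf3 difference missed the threshold when replicate 2 or 3 of the WT FT aGC females was left out (edgeR adjusted p = 0.157 and 0.241), and likewise without replicate 2 or 3 of the WT FT aGC males (0.224 and 0.125). Scaling to library totals alone moved the median change of all genes by 0.12 log2 units in this comparison, and the share of passing genes that were higher in KO FT from 49.2% to 64.1%. On that scale Irf7 (-0.48) and Irf8 (-0.64) stayed lower, Irf3 did not pass (-0.032, edgeR adjusted p = 0.656), and Irf1 (0.17, adjusted p = 0.00254) and Irf2 (0.30, adjusted p = 0.0128) passed as higher. With 1 summed profile per group 0 of 8 differences passed in edgeR, also at an unadjusted p under 0.05, and 0.0% of all genes did.

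**Figure D3:**
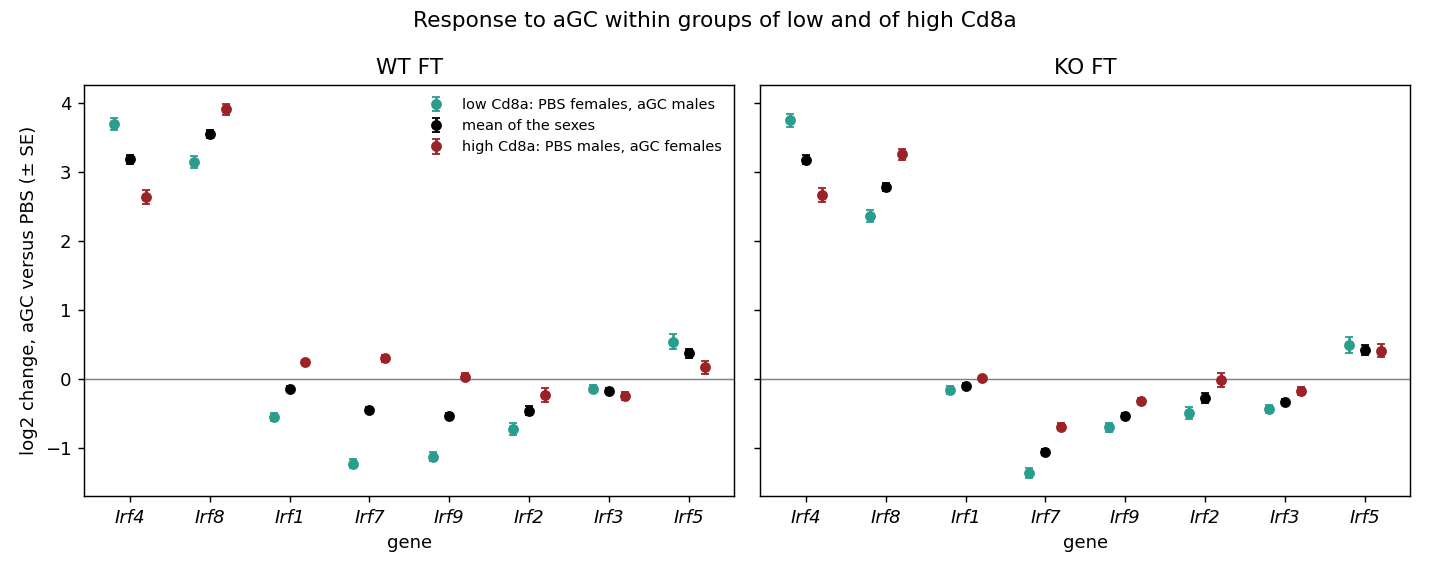
Log2 change after aGC (y axis, ± SE) for WT FT (left) and KO FT (right), over the mean of the sexes (black), between groups of low Cd8a (green, PBS females against aGC males) and between groups of high Cd8a (dark red, PBS males against aGC females). Irf4 and Irf8 exceed 2.3 in each, while Irf7 in WT FT runs from -1.22 to 0.30.

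The pair and the interferon-induced trio can be set against each other as the mean log2 CPM of Irf4 and Irf8 minus that of Irf1, Irf7 and Irf9. The grouping of members by these names is background knowledge. In PBS libraries this contrast averaged -4.20 ± 0.020 (SD, 3 libraries) in WT FT females, -4.21 ± 0.20 in WT FT males, -4.28 ± 0.14 in KO FT females and -3.65 ± 0.073 in KO FT males. After aGC it averaged -1.13 ± 0.015 in WT FT females, 0.19 ± 0.044 in WT FT males, -0.37 ± 0.013 in KO FT females and -0.49 ± 0.15 in KO FT males. The KO FT PBS males were the highest of the PBS groups, and the WT FT aGC females the lowest of the aGC groups. The genes differ in length, so the differences between groups carry the information, not the sign. Across the 24 libraries, Irf4 and Irf8 correlated at a Pearson r of 0.93, Irf7 and Irf9 at 0.93, and Irf4 and Irf7 at -0.77. Irf1 was less close, at 0.555 with Irf7, 0.69 with Irf9 and -0.31 with Irf4. Members outside the pair and the trio followed them too. Irf2 and Irf3 had 0.77 and 0.76 with Irf7 and -0.73 and -0.77 with Irf4, and Irf5 had 0.795 with Irf4. These values describe libraries that share treatment, sort and Cd8a class.

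**Figure D4:**
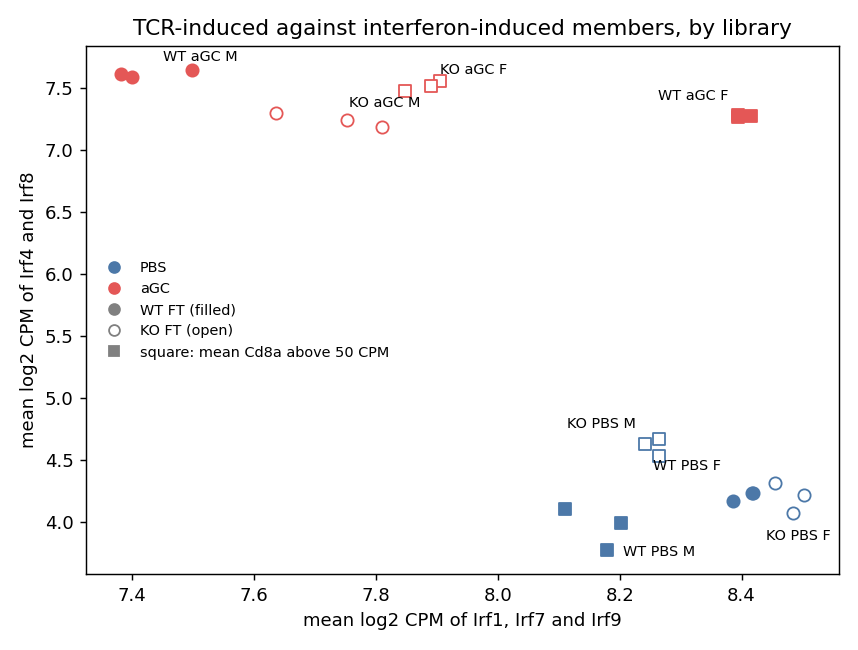
Mean log2 CPM of Irf4 and Irf8 (y axis) against that of Irf1, Irf7 and Irf9 (x axis) in each library, in blue for PBS and red for aGC, filled for WT FT, open for KO FT and square where the group's mean Cd8a exceeded 50 CPM. The aGC libraries sit in a band at the top, from the WT FT males at the left to the WT FT females at the right.

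Without antigen, the fecal donor was followed by small differences. After PBS, 3 of 8 members differed over the sexes, all higher in KO FT, against 29.4% of all genes (14.6% higher). They were Irf8 (0.34 ± 0.061, adjusted p = 0.00021), Irf4 (0.30 ± 0.073, adjusted p = 0.0035) and Irf7 (0.30 ± 0.041, adjusted p = 1.4e-05, all by edgeR with Benjamini-Hochberg adjustment). Irf4 and Irf8 differed in males, by 0.64 ± 0.098 and 0.65 ± 0.089, and in females had -0.037 ± 0.11 and 0.031 ± 0.083 (edgeR adjusted p = 0.836 and 0.817). Irf7 differed in females, by 0.50 ± 0.058, and in males had 0.09 ± 0.059 (edgeR adjusted p = 0.228). In females 4 members passed (Irf7 and Irf3 higher, Irf1 and Irf5 lower, 29.8% of all genes). In males 4 passed as well (Irf4, Irf8 and Irf1 higher, Irf3 lower, 42.5%). The number in males was 2 to 4 when single libraries were left out. Cd8a averaged 136 CPM in the KO FT PBS males and 287 CPM in those of WT FT, and its part in the male differences was not tested.

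After aGC, 5 members differed over the sexes, against 51.9% of all genes. Irf4 (0.30 ± 0.058) and Irf2 (0.23 ± 0.070) were higher in KO FT, and Irf8 (-0.42 ± 0.053), Irf7 (-0.31 ± 0.042) and Irf3 (-0.12 ± 0.039) were lower. These comparisons share their aGC libraries with the responses above. In females 5 passed (43.4% of all genes), with Irf4 0.58 higher and Irf7 0.99, Irf9 0.39, Irf1 0.18 and Irf3 0.16 log2 units lower. In males 5 passed (46.5%), with Irf2 (0.45), Irf7 (0.37) and Irf9 (0.45) higher and Irf8 (-0.75) and Irf5 (-0.31) lower. Irf7 and Irf9 thus had opposite signs in the sexes. The Irf3 call was lost when replicate 2 or 3 of the WT FT aGC females, replicate 2 or 3 of the WT FT aGC males or replicate 1 of the KO FT aGC females was left out (-0.092 to -0.052, edgeR adjusted p = 0.0512 to 0.315). Scaled to library totals, the sign of Irf3 turned (0.011), and the share of passing genes that were higher in KO FT was 65.7% in place of 48.9% (61.3% in place of 43.8% in females, 65.4% in place of 51.9% in males). With 1 summed profile per group, 0 of 8 members passed after PBS or after aGC by edgeR (0.0% of all genes), and 0 had an unadjusted p under 0.05.

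Other genes of these pathways were counted by whether they passed in edgeR. Of all tested genes, 37.5% were lower and 30.9% higher after aGC in WT FT, and 30.1% were lower and 28.1% higher in KO FT. Of 16 interferon receptors, kinases, STATs and feedback genes, 11 were lower and 2 higher in WT FT (median log2 change -0.47, against -0.11 over all genes), and 12 were lower and 3 higher in KO FT (median -0.28, against -0.031). Ifngr1, a chain of the interferon gamma receptor, changed by -1.28 ± 0.04 in WT FT and -1.34 ± 0.04 in KO FT. Socs3, a feedback inhibitor of cytokine receptors, changed by -1.17 ± 0.06 and -1.14 ± 0.06. Ifnar2, a chain of the type I receptor, changed by -0.94 ± 0.06 and -0.39 ± 0.06. After PBS, 8 of the 16 were higher in KO FT than in WT FT and 0 lower (edgeR, against 14.6% of all genes higher), with Usp18, which restrains type I signalling, at 0.23 ± 0.04.

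Of 19 sensing genes upstream of IRF3, IRF5 and IRF7, 11 were lower and 3 higher in WT FT, and 4 were lower and 4 higher in KO FT, a smaller share than of all genes in both directions. Ddx58, which encodes the RNA sensor RIG-I, changed by -1.38 ± 0.06 in WT FT and -0.76 ± 0.06 in KO FT. Tbk1, the kinase that activates IRF3, changed by -0.54 ± 0.05 and -0.12 ± 0.05. Ikbke, its relative, changed by -0.48 ± 0.05 in WT FT and had -0.07 ± 0.05 in KO FT (edgeR adjusted p = 0.195). After PBS, Dhx58, which encodes a relative of RIG-I, was 0.63 ± 0.07 higher in KO FT.

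Downstream, 38 interferon-stimulated genes were counted, most of them targets of the IRF9 complex and of IRF7. In WT FT 26 were lower and 6 higher after aGC (median -0.43), and in KO FT 31 were lower and 2 higher (median -0.67). The shares of all genes were 37.5% lower and 30.9% higher in WT FT, and 30.1% and 28.1% in KO FT. The KO FT mean joined unlike sexes, with a median of -1.25 in females (31 lower, 1 higher) and -0.16 in males (16 lower, 8 higher). Among all genes, 28.3% were lower and 27.7% higher in KO FT females, and 26.7% and 26.8% in KO FT males. The mean log2 CPM of the list went from 6.34 to 4.99 in KO FT females and from 5.46 to 5.54 in KO FT males. Epsti1 changed by -0.56 ± 0.03 in WT FT and by -0.66 ± 0.03 in KO FT, Samd9l by -1.56 ± 0.10 and -0.66 ± 0.10, and Ifit1bl1 by -0.91 ± 0.04 and -0.73 ± 0.04. Between groups of low Cd8a, 32 were lower and 2 higher in WT FT and 32 lower and 0 higher in KO FT (edgeR). Between groups of high Cd8a, 5 were lower and 16 higher in WT FT and 25 lower and 5 higher in KO FT. Among all genes in WT FT, 30.8% were lower and 28% higher at low Cd8a, and 34.5% and 28.8% at high Cd8a. In KO FT these shares were 23.1% and 24.6% at low Cd8a, and 25.4% and 27.4% at high Cd8a. The sign in WT FT thus turned between these 2 comparisons, as it did for Irf7. Each sets PBS of 1 sex against aGC of the other, so Cd8a and sex cannot be told apart here. After PBS, 27 of the 38 were higher in KO FT and 1 lower over the sexes (median 0.29, against 0.0020 over all genes, of which 14.6% were higher). The mean log2 CPM of the list was 5.77 in WT FT and 6.34 in KO FT PBS females. In PBS males it was 5.25 and 5.46, a smaller gap. Ifit3 was 1.22 ± 0.05 and Ifit1 0.66 ± 0.04 log2 units higher, and Mx1 was the 1 that was lower, at -2.74 ± 0.22.

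Targets shared by interferon gamma and IRF1 were split. Of 27 tested, 13 were higher and 9 lower in WT FT after aGC, and 9 were higher and 13 lower in KO FT. The shares of all tested genes were 30.9% higher and 37.5% lower in WT FT, and 28.1% and 30.1% in KO FT. Scaled to library totals, the WT FT split was 12 higher and 13 lower. Gbp2 and Gbp3, guanylate-binding proteins, rose by 0.99 ± 0.04 and 1.29 ± 0.06 in WT FT and by 0.47 ± 0.04 and 0.72 ± 0.06 in KO FT, while Irf1 itself was slightly lower. Icam1, an adhesion molecule, rose by 0.70 ± 0.03 and 0.52 ± 0.03.

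**Figure D5:**
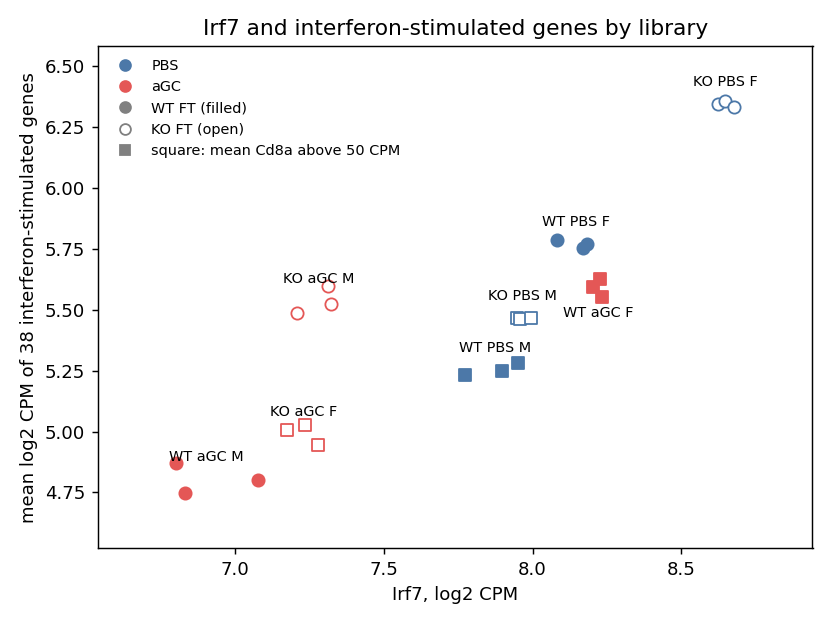
Mean log2 CPM of 38 interferon-stimulated genes (y axis) against Irf7 (x axis, log2 CPM) in each library, coloured by treatment, filled for WT FT, open for KO FT and square where the group's mean Cd8a exceeded 50 CPM. KO FT PBS females are the highest in both, and WT FT aGC males the lowest in both. In KO FT males, Irf7 is lower after aGC than after PBS, while the list mean goes from 5.46 to 5.54.

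Around the TCR-induced pair, 15 of 17 early genes of TCR signalling were higher in WT FT after aGC (median 1.75) and 15 of 17 in KO FT (median 1.77). For the list counts here, 30.9% of all tested genes were higher and 37.5% lower in WT FT, and 28.1% and 30.1% in KO FT. Cd83 rose by 3.97 ± 0.05 and 4.63 ± 0.05, Nfkbid by 2.26 ± 0.03 and 2.09 ± 0.03, and Cd69, the activation marker, by 2.04 ± 0.04 and 1.77 ± 0.04. Of 20 genes regulated by IRF4 in T cells, 13 were higher and 6 lower in WT FT and 12 were higher and 3 lower in KO FT. Myc rose by 2.12 ± 0.05 and 1.76 ± 0.05, Il2ra, a chain of the interleukin-2 receptor, by 1.81 ± 0.04 and 1.45 ± 0.04, and Ldha, of glycolysis, by 1.27 ± 0.04 and 1.00 ± 0.04. Of 18 partners and regulators of IRF4 and IRF8, 7 were higher and 5 lower in each donor group, near the shares of all genes. Batf, the AP-1 factor that joins IRF4 on DNA, rose by 0.93 ± 0.05 in WT FT and 0.73 ± 0.05 in KO FT. Stat5a rose by 1.91 ± 0.06 and 2.04 ± 0.06, and Fkbp4, which encodes an immunophilin, by 1.33 ± 0.04 and 1.07 ± 0.04. Of 11 IRF2-binding proteins and IRF modifiers, 4 were higher and 4 lower in WT FT and 2 higher and 6 lower in KO FT. Irf2bpl changed by -1.04 ± 0.07 in WT FT.

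The genes most like each member were ranked by the Pearson r of log2 CPM over the 24 libraries, among 8487 genes with a mean of 10 CPM or more. Nr4a1 (0.99), Tagap (0.99) and Tfrc (0.99) were nearest to Irf4, of which Nr4a1 encodes the TCR-induced factor Nur77 and Tfrc the transferrin receptor. Cdca7 (1.00), Il2ra (0.99) and Eif3c (0.99) were nearest to Irf8. Zbp1 (0.97), which encodes a nucleic acid sensor, Lgals9 (0.95) and Xaf1 (0.95) were nearest to Irf7. The nearest to Irf1 were Trappc12 (0.93), Ak3 (0.89) and Tmco4 (0.88), lower values than those of the other 3 members.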

How the data were processed

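RNA of iNKT cells was measured in 24 libraries, 3 for each of 8 groups of fecal donor, treatment and sex. The deposited values are estimated counts per gene that the authors made with kallisto against GRCm38 (mm10), per the submitters' processing notes; the kallisto version is not given in the sources used here. Libraries came from Nextera XT tagmentation, per the labels' protocols, which keeps no strand. The counts, whole numbers in the file, were used as deposited. Gene positions and lengths are from GENCODE M21, which gave a symbol to 55154 of 55335 genes.

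Genes were kept by filterByExpr in edgeR (minimum count 10, minimum total 15), which left 15953 of 42058 with a count. The quasi-likelihood fit of edgeR, after TMM scaling, used 8 group means with 16 residual degrees of freedom, two-sided contrasts and Benjamini-Hochberg adjustment over all tested genes at 0.05. SE is the log2 change over the square root of F. Log2 CPM used a prior count of 2. Tools were edgeR 4.0.16 and DESeq2 1.42.0 in R 4.3.3 with limma 3.58.1, and pandas 2.3.3 with matplotlib 3.10.9 and numpy 2.4.6 in Python 3.11.15.

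The members, the lists and the tests were chosen with earlier results of these data known. The text names all 8 members, of each list the 3 or fewer genes with the lowest adjusted p in WT FT after aGC or in KO FT against WT FT after PBS, and the 3 genes most like Irf4, Irf8, Irf7 and Irf1. Ighm, Trav11 and Zbtb16 were named after their values were seen. A ninth gene of the family and some list genes are not reported here. For the WT FT response in simulated data the fit found 47 of 67 planted changes of 1.5-fold, 59 of 67 of 2-fold and 66 of 66 of 4-fold, and it called 9 of 15753 unchanged genes. Few genes were changed in that simulation, whereas 68.4% of all genes passed for this response in the data. Its counts are thus not error rates for the comparisons reported here. The chi-square between libraries of 1 group was 4.11 to 16.4 per degree of freedom, more than counting error gives. Alternatives were another scaling, no filter, DESeq2, a replicate block, fits on the compared groups, on groups of low or of high Cd8a (threshold 50 CPM) and on 1 summed profile per group (3 residual degrees of freedom, common coefficient of variation 0.424 against 0.108 between libraries), and leaving out each library.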

Additional observations from a re-analysis of the deposited data

Results flagged for a closer look

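These differences of the aGC response passed edgeR's test of the difference itself (Benjamini-Hochberg adjustment). Between the sexes in WT FT (males minus females, log2), the response differed for Irf7 (-1.04 ± 0.084, adjusted p = 7.23e-10), Irf8 (1.12 ± 0.11, adjusted p = 3.39e-08), Irf9 (-0.70 ± 0.079, adjusted p = 1.54e-07), Irf1 (-0.45 ± 0.068, adjusted p = 7.47e-06) and Irf3 (-0.46 ± 0.077, adjusted p = 3.53e-05). That is 5 of 8 members, against 47.7% of all genes. In KO FT it differed for Irf1 (-0.62 ± 0.068, adjusted p = 1.38e-07), Irf4 (-1.17 ± 0.13, adjusted p = 2.19e-07), Irf7 (0.74 ± 0.084, adjusted p = 2.75e-07) and Irf2 (0.53 ± 0.14, adjusted p = 0.00304), 4 of 8 members against 46.7%. Irf7 differed between the sexes in opposite directions in the 2 donor groups. The female response compares low with high Cd8a and the male response high with low, so sex and Cd8a content cannot be told apart here. Between the donors (KO FT minus WT FT, mean of the sexes), the response differed for Irf8 (-0.77), Irf7 (-0.61) and Irf3 (-0.16). For Irf7 and Irf3 it was lower in KO FT in females but not in males.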

How the results depend on the processing

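The rises of Irf4 and Irf8 after aGC passed under every alternative run for the mean of the sexes, in both donor groups. The numbers of members that passed moved by more than 1.5-fold as follows. With 1 summed profile per group, and also with Cd8a class in place of sex in that fit, 2 members passed for aGC in WT FT, 2 for aGC in KO FT, 0 for the donor difference of the response, 0 for the donors compared after PBS and 0 after aGC. That fit has 3 residual degrees of freedom, and terms it leaves out count as spread. Only 5 members passed for aGC in WT FT between the groups of high Cd8a. Scaled to library totals, and likewise without the filter on low counts, 3 members passed for KO FT against WT FT in aGC females. Leaving out single libraries gave 3 to 5 there and 2 to 4 in PBS males. The replicate numbers did not pair the libraries across the study: over 84 pairs of same-numbered libraries, r ran from -0.23 to 0.44 with a median of -0.013, and 12 exceeded 0.1. Of 28 pairs of groups, 1 had every r over 0.1, KO FT PBS females with KO FT aGC males (0.34, 0.20 and 0.44). Fitted alone, these groups gave 7 passing members without a replicate block and 8 with it, the added one being Irf1 (-0.16 in both, edgeR adjusted p = 0.0927 and 0.027), an alternative chosen after seeing the data. A replicate block cost 1 of 81 called changes its call and turned the sign of Irf4 for the donor difference of the response (0.00080).

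Signs also turned as follows (log2 change), and the cause was not tested. Scaled to library totals, which moved the median of all genes by -0.15 for aGC in WT FT and by 0.13 for KO FT against WT FT after aGC, the values were Irf1 -0.058, Irf3 -0.088 and Irf7 -0.069 for aGC in WT FT females, and Irf1 0.088, Irf3 0.011 and Irf5 0.017 for KO FT against WT FT after aGC. They were Irf3 0.057 for the same in males, Irf8 0.037 for the same in females, Irf3 -0.052 for the sex difference of the KO FT response, and Irf4 0.12 and Irf9 0.12 for the donor difference. Without the filter they were Irf1 -0.0064, Irf3 -0.038 and Irf7 -0.018 for aGC in WT FT females, Irf2 0.018 for aGC in KO FT males, Irf4 0.053 and Irf9 0.050 for the donor difference and Irf9 -0.0020 for KO FT against WT FT in PBS males. Between groups of high Cd8a they were Irf1 0.013 for aGC in KO FT, and Irf1 0.24, Irf7 0.30 and Irf9 0.037 for aGC in WT FT. There, too, the donor difference was -0.23 for Irf1, 0.068 for Irf3 and 0.032 for Irf4, the donors compared after PBS gave 0.12 for Irf1, -0.13 for Irf2 and -0.16 for Irf3, and after aGC 0.17 for Irf5 and -0.32 for Irf9. Between groups of low Cd8a they were Irf1 0.092 and Irf7 0.37 for KO FT against WT FT after aGC, Irf4 0.051, Irf5 -0.050 and Irf9 0.42 for the donor difference and Irf4 -0.037 for the donors compared after PBS. Fitted on the compared groups alone, they were Irf1 0.013 for KO FT against WT FT after aGC and Irf2 0.025 for aGC in KO FT males. With DESeq2 they were Irf3 -0.0013 for the sex difference of the KO FT response and Irf4 -0.0071 for KO FT against WT FT in aGC males. With its size factors in edgeR these were -0.0029 and -0.0060, with Irf4 0.00030 for the donor difference. With summed profiles Irf9 was -0.0076 for KO FT against WT FT after aGC, or -0.041 with Cd8a class.

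Leaving out single libraries turned the sign only of changes that had not passed. For KO FT against WT FT after aGC, Irf1 ran from -0.070 to 0.026 and Irf9 from -0.013 to 0.095. For the donor difference, Irf4 ran from -0.066 to 0.078, Irf5 from -0.0028 to 0.14 and Irf9 from -0.047 to 0.067. Irf2 ran from -0.11 to 0.065 for aGC in KO FT males and from -0.033 to 0.10 for the donors in aGC females. Irf3 ran from -0.035 to 0.068 for aGC in WT FT females and from -0.052 to 0.050 for the sex difference of the KO FT response. Irf4 ran from -0.038 to 0.20 for the sex difference of the WT FT response, from -0.035 to 0.088 for the donors in aGC males and from -0.084 to 0.039 in PBS females, where Irf8 ran from -0.041 to 0.068. Of 2880 such values, 54 lost and 24 gained a call.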
